A study of Ovis aries with 6 samples.

Results

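Genes that held a steady level across pools of immature sheep oocytes but differed at least 4-fold between pools of mature ones were 10 of 18000 annotated genes, in a table of 25609 features. They were chosen on CPM values, each feature's count per 1000000 counts of its library. A member had an Ensembl sheep identifier numbered under 25000 and at least 10 CPM in every GV library. Its highest GV library was at most 1.5 times its lowest, its highest MII library was at least 4 times its lowest (0 counts would be set to 1), and its MII mean was over 0.25 and under 4 times its GV mean. These measured values chose the members, so all values below are descriptions, and no test of the members is given as support.

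The libraries came from total RNA of oocytes of Xinjiang Sheep, 3 at the germinal vesicle (GV) stage, when the oocyte still has its nucleus, and 3 at metaphase II (MII), the second meiotic arrest. A library pooled 30 to 35 oocytes, taken from follicles 2 to 8 mm wide. GV oocytes were bare of cumulus cells when collected. MII oocytes came from cumulus-oocyte complexes, were stripped with hyaluronidase, were cultured in maturation medium for 23 to 25 h at 38.5 °C in 5% CO2, and had released a first polar body. Effects of stage, of culture and of the kind of oocyte first collected therefore cannot be told apart. The labels name no treatment beyond this, and describe the pools as biological repeats without saying if they shared animals. Total counts were 26984892 to 28117286 in GV and 28578411 to 31962405 in MII.

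As background, a fully grown GV oocyte makes little new RNA and relies on messages stored during growth. During maturation some stored messages are recruited for translation by lengthening of their poly(A) tails, and many others are shortened and degraded. A level measured at MII can thus depend on how far that turnover has gone, which was not measured in these pools.

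The files give identifiers without gene names, and 0 of 18914 Ensembl identifiers could be matched to a symbol in the reference used here. The roles, positions and sequences of the members are therefore not given, and oocyte and cumulus markers could not be checked. Members are numbered 1 to 10 by the ratio of their highest to their lowest MII pool, and 3 are given by identifier. Gene 1 (ENSOARG00000013810) had the highest such ratio among members with a lower mean in MII, and gene 5 (ENSOARG00000008008) the median one. Gene 7 (ENSOARG00000004112) was the member with a higher mean in MII.

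Nearly all members were lowest in the same MII pool. MII pool 3 held the lowest of the 3 MII values in 9 of 10 genes, and pool 2 in gene 9. Among 5163 other genes that met the same limits except for an MII spread under 4, called other steady genes below, pool 3 was the lowest in 45.7%. MII pool 2 held the highest in 7 members (49.7% of other steady genes), and pool 1 in genes 1, 4 and 9. In those 7 genes the order was pool 2, then pool 1, then pool 3. The MII mean was below the GV mean in 9 members (48.0% of other steady genes), with a median ratio of 0.410. It was below in 81.0% of the 63 other steady genes with an MII spread of 3 to 4, with a median ratio of 0.490. The rule limited the means and chose on the MII spread, so these shares are given for reading the counts and not as a test. Across members, levels ran from 11.0 to 1591 CPM in GV and from 2.00 to 643 CPM in MII. CPM is not divided by transcript length, so these ranges do not rank genes.

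**Figure D1:**
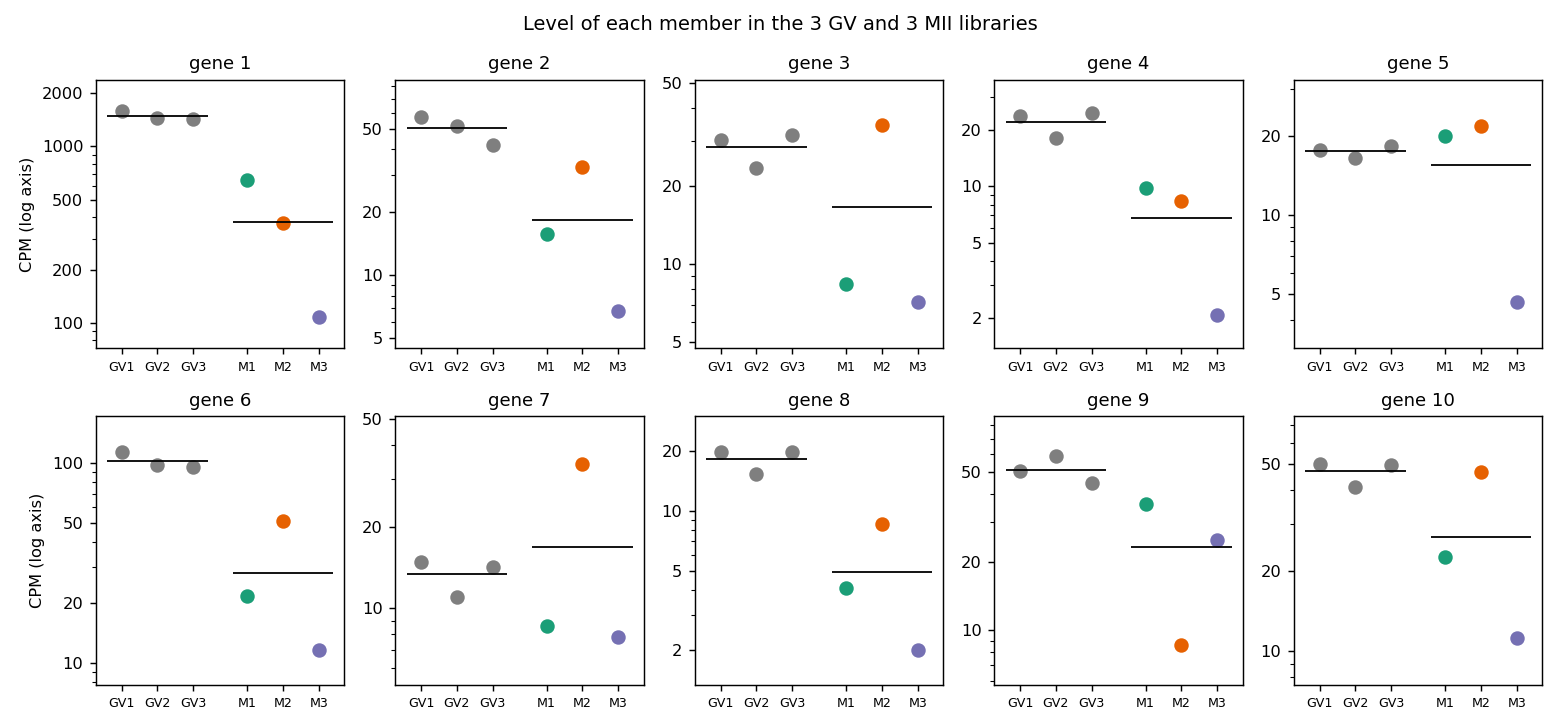
CPM on a log axis for each of the 10 members in the GV libraries (grey) and MII pools 1 (green), 2 (orange) and 3 (purple), written M1 to M3, 1 point per library, with bars at the stage means. The GV points lie close together in every panel, and the purple point is the lowest MII value in every panel but that of gene 9.

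In 3 members, MII pool 3 stood apart below the other 2 pools. A pool is said to stand apart where its gap to the nearest other pool took at least 0.667 of the range of the 3 MII values on the log2 scale. Pool 3 stood apart below in 13.2% of other steady genes. Gene 1 had 1591, 1451 and 1427 CPM in the GV libraries and 643, 368 and 108 CPM in MII pools 1, 2 and 3. Every MII pool lay below every GV library, and pool 3 was 4.67-fold below the mean of pools 1 and 2. Its mean was 1490 ± 88.8 CPM over the GV libraries and 373 ± 268 CPM over the MII libraries (SD, n = 3 each). The gap of pool 3 took 0.686 of the range in gene 1, close to the limit. With the libraries rescaled as described below it took 0.648, so no pool of gene 1 stood apart.

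Gene 4 had 23.6, 18.2 and 24.6 CPM in GV and 9.80, 8.37 and 2.06 CPM in MII. Its first 2 MII pools were alike, within 1.17-fold, and both lay below all GV libraries. Pool 3 was 4.40-fold below their mean.

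Gene 5 differed from these in that only pool 3 lay over 1.5-fold from the GV mean. It had 17.6, 16.5 and 18.3 CPM in GV and 19.9, 21.7 and 4.69 CPM in MII, so pools 1 and 2 lay above all GV libraries and pool 3 below them. The counts behind the MII values were 569, 679 and 150. Its means, 17.5 ± 0.924 CPM for GV and 15.4 ± 9.35 CPM for MII (SD, n = 3 each), were close together although pool 3 was 4.43-fold below the mean of pools 1 and 2.

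In 2 members, MII pool 2 stood apart above, as it did in 1031 of the 5163 other steady genes, which is nearly the same share. Gene 3 had 30.1, 23.5 and 31.4 CPM in GV and 8.40, 34.3 and 7.13 CPM in MII. Its pool 2 lay above all GV libraries and the other 2 pools below them. Gene 7 had 14.8, 11.0 and 14.3 CPM in GV and 8.57, 34.1 and 7.82 CPM in MII. Pool 2 was 4.16-fold above the mean of the other 2, which lay below all GV libraries and within 1.10-fold of each other. The higher MII mean of gene 7, 16.8 ± 14.9 CPM against 13.3 ± 2.06 CPM (SD, n = 3 each), came from that pool, which had 1066 counts against 245 and 250.

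Gene 9 was the exception in that pool 2 was the lowest, and it stood apart below (7.81% of other steady genes). It had 50.1, 58.4 and 44.6 CPM in GV and 36.0, 8.63 and 25.0 CPM in MII. All 3 pools lay below all GV libraries, and pool 2 was 3.53-fold below the mean of pools 1 and 3.

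The remaining 4 members (genes 2, 6, 8 and 10) were graded, with no pool apart (36.5% of other steady genes), and shared the order pool 2, pool 1, pool 3. Gene 2 had 57.4, 52.0 and 41.9 CPM in GV and 15.7, 32.9 and 6.73 CPM in MII. Gene 6 had 114, 97.8 and 95.0 CPM in GV and 21.6, 51.2 and 11.6 CPM in MII. In both, the stages did not overlap. Gene 8 had 19.8, 15.2 and 19.8 CPM in GV and 4.09, 8.60 and 2.00 CPM in MII, again without overlap. Gene 10 had 50.2, 41.2 and 49.4 CPM in GV and 22.4, 46.7 and 11.3 CPM in MII, so its pool 2 lay among the GV libraries and its other pools below them. Neighbouring pools in these 4 genes were 1.86-fold to 2.37-fold apart.

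Set against the GV mean, MII pool 3 was the farthest from it in most members. Pool 3 was over 1.5-fold lower in 10 of 10 members, where 52.7% of 19302 tested features were. So were 32.0% of other steady genes, and 81.0% of the 63 with an MII spread of 3 to 4. With the libraries rescaled as described below, pools 1, 2 and 3 were that much lower in 7, 5 and 8 members. The level of pool 3 ran from 7.28% of the GV mean in gene 1 to 58.6% in gene 7, with a median log2 difference of −2.48. Pool 1 was over 1.5-fold lower in 8 members (43.7% of tested features, 23.0% of other steady genes). Its median was −1.19, from 21.1% of the GV mean in gene 6 to 114% in gene 5. Pool 2 was over 1.5-fold lower in 6 members (45.3% of tested features, 24.1% of other steady genes), with a median of −0.81. It was over 1.5-fold higher in gene 7 (19.4% of tested features, 27.7% of other steady genes). Its level lay above 90% of the GV mean in 4 members, genes 3, 5, 7 and 10. The 3 pools are set against the same GV libraries, and the rule limited the mean of these changes. In a pool of oocytes, a large difference in a few oocytes and a small difference in all of them cannot be told apart.

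**Figure D2:**
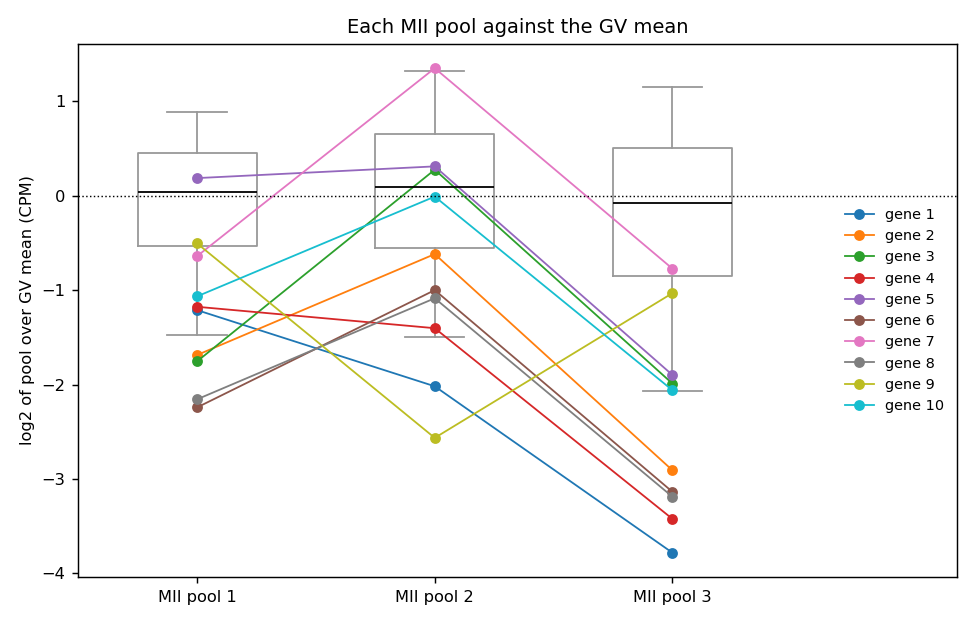
Log2 of each MII pool over the GV mean (CPM) for the 10 members (coloured points, with a line joining the 3 pools of 1 gene) and, as boxes, for 5163 other genes steady in GV (quartiles, with whiskers at percentiles 5 and 95). The boxes lie around 0 in all pools, and the members reach their lowest values in pool 3, down to −3.78.

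Whether the pool apart followed the change from GV to MII differed between members. In 3 of the 6 members with a pool apart, the mean of the other 2 pools lay over 1.5-fold below GV and the pool apart lay further out on the same side: pool 3 in genes 1 and 4, and pool 2 in gene 9, whose pool 1 taken alone was at 70.5% of the GV mean. In gene 3 the mean of the other 2 pools had a log2 difference from GV of −1.87, and pool 2 lay near the GV level. In gene 7 that difference was −0.70, and pool 2 lay on the opposite side of GV. In gene 5 the other 2 lay within 1.5-fold of GV. The direction and the change it is set against both contain the other 2 pools, so the counts are not independent of each other. Among 3281 other steady genes with a pool apart, it lay beyond the other 2 in 19.3%, behind them in 27.8% and across GV in 0.366%, and in 52.5% the other 2 lay within 1.5-fold of GV. Most of these genes had a smaller MII spread than the members. At a spread of 3 to 4, 42 genes had a pool apart. It lay beyond the other 2 in 35.7% of the 42, behind them in 26.2% and across GV in 14.3%. In 23.8% the other 2 lay within 1.5-fold of GV. With libraries rescaled by edgeR's trimmed mean of M-values (TMM), 5 members had a pool apart: gene 4 lay beyond the other 2, genes 3 and 5 lay across GV, and in genes 7 and 9 the other 2 pools were within 1.5-fold of GV.

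The scaling of the libraries bears on these values. TMM factors were 1.16 to 1.17 in GV, 0.899 and 0.910 in MII pools 1 and 2, and 0.769 in pool 3, the lowest. On plain CPM the median log2 ratio of MII to GV over 19302 tested features was −0.45, against −0.01 with TMM and −0.11 with upper-quartile scaling. With TMM the members' median ratio of means was 0.552, and the mean of gene 5 moved from below GV (0.883) to above it (1.16). Pool 3 then held the lowest value in 8 of 10 members, pool 1 taking its place in gene 7, and pool 2 the highest in 7. Among the 5163 other steady genes, still those chosen on plain CPM, pool 3 was then the lowest in 23.9%. Pool 2 was the highest in 37.9% of them and pool 3 in 39.5%. Only 5 of the 10 members still reached a 4-fold spread, genes 1, 2, 3, 4 and 9. The part of library composition in the members' pattern was not tested.

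The lowest MII count of any member was 64. Exact 95% intervals of the ratio of highest to lowest pool were built from read counts and cover counting error only. No molecular identifiers are recorded, so duplicate reads may make the intervals too narrow even for that. The intervals ran from 5.72 to 6.16 for gene 1 (5.94) and from 3.26 to 5.73 for gene 8 (4.29). They lay wholly above 4 in 3 members and reached below it in the other 7. The rule chose on this ratio, so the intervals say nothing of how it would fall in other libraries. Within GV the members' highest library was 1.11 to 1.37 times the lowest, with library 2 lowest in 6 genes and library 3 in 4. No feature of the table, assembled loci included, had counts within 15% of a member's in all libraries. The nearest reached 15.5% from gene 8.

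Some members lay close to a limit of the rule. The smallest MII spread of a member was 4.14, in gene 10, and the largest outside it was 3.94, in a gene with 12.7, 14.4 and 15.8 CPM in GV and 4.30, 14.3 and 3.63 CPM in MII. Gene 1 passed the limit on the means with a ratio of 0.251. The nearest gene on the other side had 0.227 and MII values of 7.10, 12.6 and 2.97 CPM. Of 31 genes steady in GV with a 4-fold MII spread, 21 were left out because their MII mean was at most 0.25 times the GV mean. In all 21, pool 3 was the lowest, with plain CPM and with TMM, and pool 2 was the highest in 15. A further 10 genes failed only the limit on the GV spread, the nearest at 1.597.

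**Figure D3:**
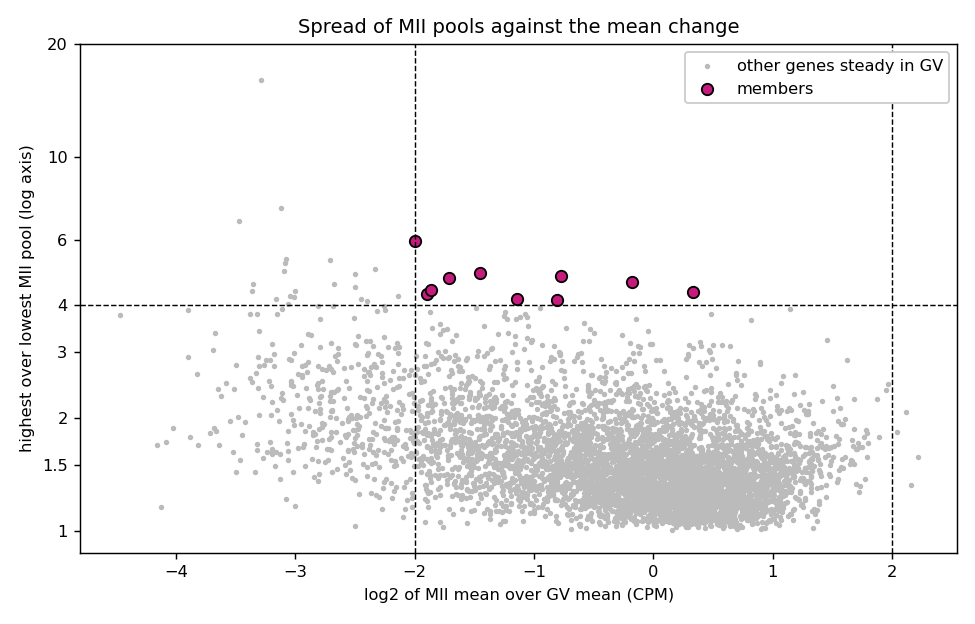
Ratio of the highest to the lowest MII pool (log axis) against log2 of the MII mean over the GV mean, for 5573 annotated genes steady in GV, 1 point per gene, with dashed lines at the limits of the rule. The 10 members (filled) lie above the 4-fold line between log2 −2 and 2, and 9 of them left of 0.

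In abundant GV genes, a 4-fold spread was found among MII pools and not among GV pools. Of 5923 annotated genes with at least 10 CPM in every GV library, 47 reached a 4-fold spread in MII and 0 in GV. The floor was set on GV alone and leaves out genes with a low GV library. It therefore limits the spread in GV and not in MII, and the counts are not an even comparison of the stages. The median ratio of highest to lowest library was 1.46 in MII and 1.18 in GV. All spreads in this comparison are in plain CPM. TMM factors were 0.899, 0.910 and 0.769 in the MII pools but 1.16 to 1.17 in GV. Scaling therefore bears more on the spread in MII than on that in GV, and its part in the difference was not tested. With the stages swapped in the rule, a comparison chosen after the data were seen, 3155 genes were steady in MII, and 0 of them met it, the largest GV spread being 3.30. Among the 5573 genes steady in GV, 85.4% had an MII spread under 2.

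The order of pools seen in the members was more frequent in steady genes of larger MII spread. Pool 3 was the lowest in 37.7% of 3028 genes with a spread of 1 to 1.5, in 51.6% of 1538 genes at 1.5 to 2, in 69.9% of 534 at 2 to 3 and in 82.5% of 63 at 3 to 4. With TMM these shares were 10.9%, 35.4%, 58.1% and 76.2%, with the genes still grouped by their spread in plain CPM. TMM raises pool 3 the most, which changes the order most easily where the spread is small. The TMM shares are therefore not a separate check of the increase. Pool 2 was the highest in 39.7%, 59.2%, 75.1% and 82.5% of these genes, and with TMM in 21.8%, 54.9%, 74.9% and 82.5%. The differences between these groups of genes, and from the members, were not tested.

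**Figure D4:**
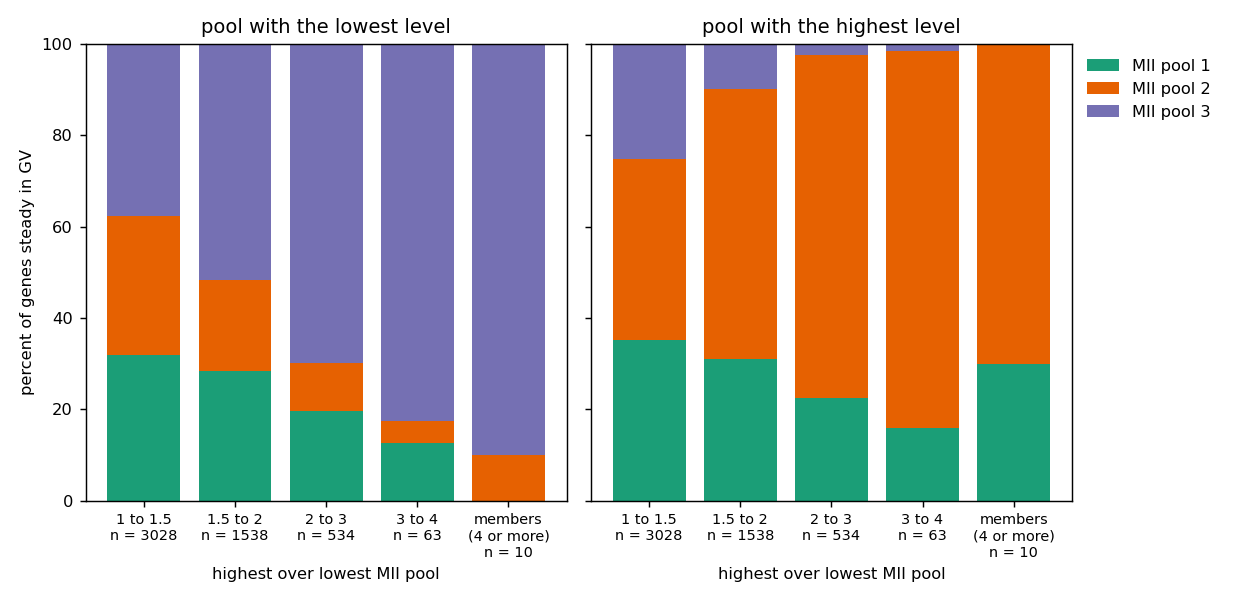
Percent of genes steady in GV whose lowest (left) or highest (right) MII value was in pool 1, 2 or 3, by the ratio of highest to lowest MII pool in plain CPM, with the members as the last bar of each panel. The share with pool 3 lowest goes from 37.7% at a spread of 1 to 1.5 to 9 of 10 members.

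The order of pools also went with the direction of the mean change. That mean is taken over the same MII pools whose order is counted, so order and direction are not independent. The shares with TMM keep the genes grouped by their means in plain CPM. Among 781 other steady genes with an MII mean at least 2-fold below GV and a spread under 4, pool 3 was the lowest in 80.2% (59.4% with TMM) and pool 1 in 5.63%. Among 363 with a mean at least 2-fold above GV, pool 1 was the lowest in 83.7% (91.7% with TMM) and pool 3 in 10.2%. In these genes pool 2 was the highest in 70.0% with plain CPM, but with TMM pool 3 was, in 59.5%. Among the 4019 whose mean stayed within 2-fold, pool 3 was the lowest in 42.2%, and in 19.0% with TMM.

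Assembled loci, transcripts with MSTRG identifiers that are not members, were held to the same limits. Of 6695 loci, 15 met them. Pool 3 was the lowest in 7, pool 2 in 6 and pool 1 in 2, while pool 1 was the highest in 11, pool 3 in 4 and pool 2 in 0. Among 1368 other steady loci pool 3 was the lowest in 42.0%, pool 2 in 46.3% and pool 1 in 11.7%. In the same loci pool 1 was the highest in 60.4%, pool 3 in 22.8% and pool 2 in 16.8%. Of 914 identifiers numbered from 25000 up, 0 met the limits. The difference between loci and members was not tested.

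In the comparison of all 3 MII with all 3 GV libraries, 4 members (genes 1, 4, 6 and 8) passed as lower in MII by edgeR's quasi-likelihood test, at a Benjamini-Hochberg adjusted p under 0.05, where 26.2% of 19302 tested features did, and 6 did not pass. By edgeR and by DESeq2 0 members were called higher, where edgeR called 24.7% of tested features, and at an unadjusted edgeR p under 0.05 there were 5 lower and 0 higher. In 6 members (genes 1, 2, 4, 6, 8 and 9) every MII library lay below every GV library, where 43.7% of tested features did. When 1 library was left out, 2 to 6 members were called lower (the fewest without GV replicate 3, the most when MII replicate 2 was dropped), and gene 5 was called higher without MII replicate 3. The rule used this contrast, so nothing is read from these counts.

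The membership rests on single pools. Without MII pool 3, genes 3 and 9 alone kept a 4-fold spread. Without pool 2, genes 1, 4 and 5 kept it, and without pool 1, the 8 genes other than 1 and 9 did.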

How the data were processed

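The authors deposited whole-number counts per feature, without normalization, in 1 table of 6 libraries. Per the labels' protocols, 3 µg of RNA went into each library, ribosomal RNA was depleted, the kit was a strand-keeping NEBNext Ultra one, and sequencing gave pairs of 100 bp reads. The submitters' processing notes name Trimmomatic 0.38, STAR 2.7.1a, StringTie 2.0, featureCounts 1.6.4, DESeq2 and the build Oar_v3.1. Their roles and the strand setting used for counting were not given in the sources used here, so reads of overlapping, antisense or near-identical features may be shared between identifiers.

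Identifiers were looked up among 35057 RefSeq genes of ARS-UI_Ramb_v3.0, and gene lists were not used because 0 matched. CPM used total counts. MII was tested against GV with edgeR 4.0.16 in R 4.3.3 on all 19302 features passing filterByExpr (TMM, robust quasi-likelihood, stage only). DESeq2 1.42.0 was used as an alternative. The p-values weigh the difference between stages against the spread between these pools, and do not test that spread. Scripts were tested on simulated data. The members and lists were chosen with earlier results of these data known. The identifiers given are, for each direction of the mean, the member with the highest MII spread and the one nearest the median spread.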

Additional observations from a re-analysis of the deposited data

How the results depend on the processing

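The number of members (10) moved with each limit on level, spread and mean that was varied. It was 5 with TMM-scaled CPM, 6 with upper-quartile scaling, 25 with a GV floor of 5 CPM and 6 with 20 CPM, 4 with a GV spread of at most 1.3 and 17 with at most 2, 73 with an MII spread of at least 3 and 0 with at least 6, and 4 with means within 2-fold. Leaving out each library gave 2 to 23, namely 23, 21 and 11 without GV replicates 1, 2 and 3, and 7, 3 and 2 without MII replicates 1, 2 and 3. Of the reported members, 10, 8 and 9 stayed without a GV replicate. The order of pools was set again for each list. At an MII spread of at least 3, pool 3 was the lowest in 61 of 73 genes and pool 2 the highest in 59, pool 3 stood apart below in 19, pool 2 above in 26 and below in 2, and 25 were graded. With members chosen again on TMM-scaled CPM (5), these counts were 4, 2, 1, 1, 1 and 2. Without each GV replicate they ran from 10 to 18, 7 to 18, 2 to 8, 2 to 10, 1 to 2 and 5 to 8. With every member assigned to a pool (a gap of at least 1/2), pool 2 stood apart above in 5, 0 were graded and 4 lay behind. With a gap of 0.8, pool 2 stood apart below in 0.

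The pool apart lay beyond the other 2 in 3 members, but in 1 with a gap of 0.8, in 1 with upper-quartile scaling and in 1 on TMM-scaled CPM, with the same members or members chosen again, where 0 lay behind. With the same members, 2 then lay across GV and 2 had their other pools near GV. With a change of 2-fold, 0 lay across and 3 had the others near GV. The median log2 levels of pools 1, 2 and 3 against GV became −0.82, −0.45 and −1.88 with TMM. Scaling by total count alone cut the features called higher in MII from 4769 to 2332. Leaving out each library gave 0 to 1 member called higher and 2 to 6 called lower: 1 higher (gene 5) without MII replicate 3 and 2 lower without GV replicate 3. With a replicate block, 4094 features were higher, 4621 lower and 5 members lower, gene 2 being added. Deviations from the stage means were not shared by same-numbered libraries (correlation −0.0892, −0.230 and −0.0304 for numbers 1 to 3), so the numbers were not taken as pairs. The cause of these changes was not tested, and 127 of 179 recomputed values stayed within 1.5 times or within the GV spread of the reported ones. Some of these could not move, such as the counts of the lowest and highest pool under another gap limit. The tally is therefore no measure of stability.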
